A study of Rattus norvegicus with 6 samples.

Results

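Pmepa1, Ndrg1, Acsl3, Odc1 and Tmprss2, genes known as targets of androgens, were examined in the hippocampus of male rats after removal of the testes. They were chosen from a list of names, and every probe that a RefSeq transcript accession assigns to one of them was kept. This gave 5 of 15154 named genes on the array and 6 of 30367 probes, with 2 probes for Pmepa1 (A_64_P002904, here probe 1, and A_64_P002899, here probe 2) and 1 for each other gene. The orchidectomized group held 3 male Wistar rats whose testes were removed at 2 months of age, and the sham group held 3 male Wistar rats operated on at the same age without removal. Hippocampi of both groups were collected 2 weeks after surgery, under ketamine and medetomidine anaesthesia. Total RNA of each animal was hybridised to its own 1-colour Agilent array, and the labels call the animals of a group biological replicates.

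Androgens such as testosterone and dihydrotestosterone change transcription of target genes through DNA sequences called androgen response elements. Removal of the testes takes away the main source of circulating testosterone. The genes described here are known as androgen targets chiefly from prostate cells. Pmepa1 encodes a membrane protein that restrains TGF-beta signalling by holding SMAD proteins. Ndrg1 encodes a stress- and differentiation-linked protein that is needed for maintenance of peripheral myelin. Acsl3 activates long-chain fatty acids to acyl-CoA on the endoplasmic reticulum and lipid droplets. Odc1, ornithine decarboxylase, catalyses the first step of polyamine synthesis. Tmprss2 is a membrane-bound serine protease of epithelia.

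RefSeq promoter sequence of the GRCr8 assembly was matched to 4 of the 5 genes, and the 250 bases before the gene start were searched. The half-site of the androgen response element (TGTTCT, both strands) was found in 0 of these 4 windows, against 17.5% of 33469 rat promoters of the same length. The full element, with both half-sites spaced by 3 bases, was found in 0 of the 4 and in 0.012% of all promoters. The letters are therefore not in these windows, which says nothing about more distant sites. The 4 windows hold 65.6% to 78.4% G and C, against a median of 51.2% over all promoters. The shares of all promoters given here are not matched for this. The GC box (GGGCGG, both strands) was found 2 times for Pmepa1, 4 times for Acsl3, 5 times for Odc1 and 0 times for Tmprss2, and at least once in 30.5% of all promoters. TATAA, in the direction of transcription, was found once upstream of Odc1 and in 16.7% of all promoters. The last pair of motifs was chosen after the sequences had been read. Pmepa1 and Odc1 are shown because both were high on 1 array described below, and Tmprss2 because it was not detected on the other 5. Capitals mark GC boxes and, in Odc1, TATAA, and the Tmprss2 window holds neither motif.
Pmepa1, chr3:182478650-182478899, minus strand: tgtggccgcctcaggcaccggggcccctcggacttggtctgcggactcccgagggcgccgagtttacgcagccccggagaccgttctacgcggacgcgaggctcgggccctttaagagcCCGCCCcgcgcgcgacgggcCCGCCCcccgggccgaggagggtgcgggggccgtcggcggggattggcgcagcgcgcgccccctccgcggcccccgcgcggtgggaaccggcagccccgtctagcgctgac
Odc1, chr6:46058415-46058664, plus strand: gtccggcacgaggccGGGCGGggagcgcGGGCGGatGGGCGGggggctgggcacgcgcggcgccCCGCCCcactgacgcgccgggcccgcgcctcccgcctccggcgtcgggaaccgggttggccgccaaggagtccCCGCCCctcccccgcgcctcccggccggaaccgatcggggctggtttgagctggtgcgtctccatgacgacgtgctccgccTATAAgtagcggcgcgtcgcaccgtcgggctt
Tmprss2, chr11:50443115-50443364, minus strand: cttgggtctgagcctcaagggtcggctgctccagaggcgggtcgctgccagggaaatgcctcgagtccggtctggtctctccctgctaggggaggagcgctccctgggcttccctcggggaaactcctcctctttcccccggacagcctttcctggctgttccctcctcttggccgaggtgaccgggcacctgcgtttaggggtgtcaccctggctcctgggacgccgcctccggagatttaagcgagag

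Each value below is a log2 intensity after subtraction of its array's 75th percentile, so a probe at 0 is as bright as that percentile. By the scanner software's flag, 23785 to 26173 probes per array stood well above background. Of the 6 arrays, the one labelled sham 2 stood apart. It correlated with the others across probes at 0.876 to 0.880, against 0.983 to 0.993 among the other 5. On it 11 of 12 markers of the choroid plexus, the epithelium that secretes cerebrospinal fluid, lay above the highest of the other 5 arrays, and the median shift over the 12, against the other 5, was 8.64 log2 units. Some of these markers, such as Kcnj13, were saturated there. All 10 markers of glutamatergic neurons lay below the lowest of the other 5, with a median shift of -7.48, and 3 of them (Slc17a7, Grin2b and Prox1) were not well above background there. On the other 5 arrays all 10 were well above background, as the hippocampal label asks. The 5 genes are given without and with the array labelled sham 2. Lists, and genes named from them, are given without it unless 6 arrays are stated. Differences are orchidectomized minus sham. In whole tissue, fewer cells of a type and less RNA per cell cannot be told apart.

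**Figure D1:**
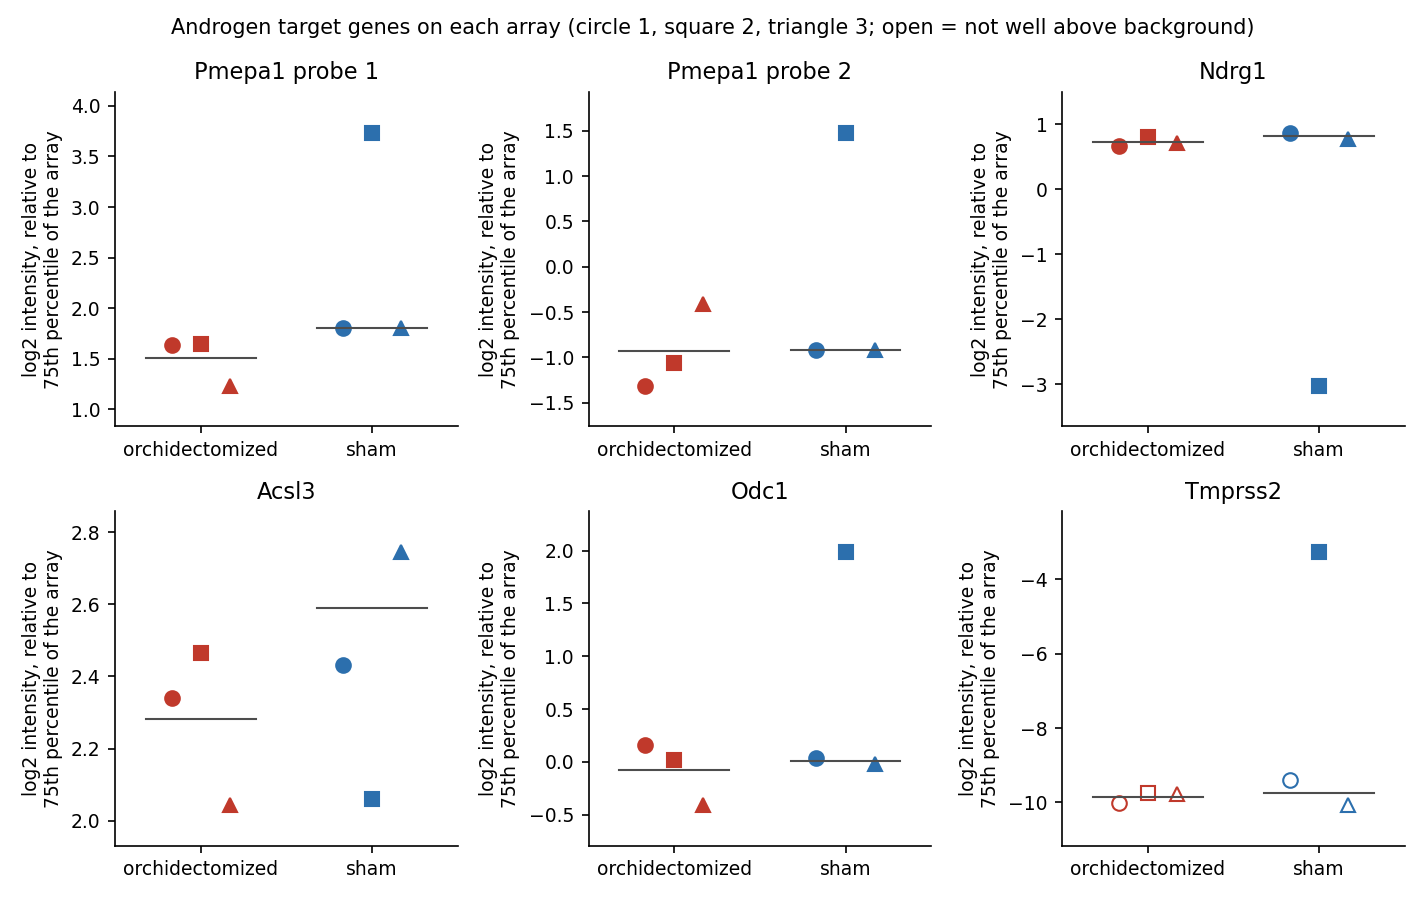
Log2 intensity of each probe on each array, orchidectomized left and sham right, with lines at the group means without the array labelled sham 2. The square in the sham column is that array. It lies above all others for both Pmepa1 probes, Odc1 and Tmprss2 and below all others for Ndrg1. Open symbols are values not well above background, which covers Tmprss2 on the other 5 arrays.

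No probe of the 5 genes passed the threshold. With the array labelled sham 2 left out, 0 of 25212 probes had a limma p under 0.05 after Benjamini-Hochberg adjustment, which is 0%, and 682 (2.71%) had an unadjusted p under 0.05. Over 6 arrays 0 of 24634 did, again 0%, with 180 (0.731%) at an unadjusted p under 0.05. Of the 5 genes, 4 were bright enough to be tested and Tmprss2 was not. With the brightest probe per gene, the differences of these 4 were all below 0 without the array labelled sham 2, with a median of -0.20. Over all tested probes 55.1% lay below 0, with a median of -0.02. Over 6 arrays 1 of the 4 lay above 0 and 3 below, with a median of -0.44, where 51.6% of all tested probes lay below 0 and the groups did not overlap at 8%.

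Pmepa1, the inhibitor of TGF-beta signalling, was lower on each orchidectomized array than on any sham array by probe 1 and overlapped between the groups by probe 2. Probe 1 had 1.64, 1.65 and 1.23 in orchidectomized rats, against 1.81 on sham 1, 3.74 on the array labelled sham 2 and 1.80 on sham 3. The groups did not overlap, and the widest gap lay between the array labelled sham 2 and all others. Without that array probe 1 averaged 1.5 ± 0.24 in orchidectomized rats (SD, n = 3) and 1.81 ± 0.004 in sham rats (SD, n = 2). The difference was -0.30 (SE 0.17, 95% confidence interval -0.73 to 0.13, or a ratio of 0.602 to 1.09), with a limma adjusted p of 0.988. The same order, groups apart with orchidectomized lower, was found for 10% of all tested probes in this comparison. Without orchidectomized 3 the difference was -0.16. Over 6 arrays it was -0.95 (SE 0.58, interval -2.38 to 0.49, limma adjusted p 0.774), where 4.74% of probes had the same order and 3.26% the opposite one.

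Probe 2 of Pmepa1 had -1.31, -1.06 and -0.41 in orchidectomized rats, against -0.91 on sham 1, 1.48 on the array labelled sham 2 and -0.92 on sham 3. Orchidectomized 3 was the highest of the 5 arrays other than the one labelled sham 2 by probe 2 and the lowest of them by probe 1, so the 2 probes disagree on that animal. The difference without the array labelled sham 2 was -0.01 (SE 0.28, interval -0.70 to 0.68, limma adjusted p 0.999). Over 6 arrays it was -0.81 (SE 0.73, interval -2.62 to 1.0, limma adjusted p 0.774). Both probes carry the same RefSeq transcript accession, NM_001107807.

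Ndrg1, which is linked to stress and myelin, differed least between arrays once the one labelled sham 2 was left out. It had 0.66, 0.81 and 0.71 in orchidectomized rats, against 0.87 on sham 1, -3.03 on the array labelled sham 2 and 0.77 on sham 3. The groups overlapped. Of 24162 probes detected on the other 5 arrays, 10.6% had a smaller SD over them than Ndrg1. The mean was 0.72 ± 0.08 in orchidectomized rats (SD, n = 3) and 0.82 ± 0.07 in sham rats without the array labelled sham 2 (SD, n = 2). The difference was -0.10 (SE 0.13, interval -0.41 to 0.22, or a ratio of 0.751 to 1.17, limma adjusted p 0.988). Over 6 arrays the sign turned, to 1.19 (SE 1.09, interval -1.53 to 3.91, limma adjusted p 0.774), with 1 sham array setting the value.

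Acsl3, the long-chain acyl-CoA synthetase, was the member least displaced on the array labelled sham 2. It had 2.34, 2.47 and 2.04 in orchidectomized rats, against 2.43 on sham 1, 2.06 on the array labelled sham 2 and 2.75 on sham 3. Orchidectomized 2 lay above sham 1, so the groups overlapped. The means without the array labelled sham 2 were 2.28 ± 0.22 in orchidectomized rats (SD, n = 3) and 2.59 ± 0.22 in sham rats (SD, n = 2). The difference was -0.31 (SE 0.19, interval -0.77 to 0.16, or a ratio of 0.587 to 1.11, limma adjusted p 0.988). Over 6 arrays it was -0.13 (SE 0.25, interval -0.76 to 0.50, limma adjusted p 0.832).

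Odc1, the entry enzyme of polyamine synthesis, had 0.16, 0.02 and -0.41 in orchidectomized rats, against 0.04 on sham 1, 1.99 on the array labelled sham 2 and -0.02 on sham 3. Its lowest array was orchidectomized 3, while orchidectomized 1 lay above sham 1 and sham 3. The means without the array labelled sham 2 were -0.08 ± 0.30 in orchidectomized rats (SD, n = 3) and 0.01 ± 0.04 in sham rats (SD, n = 2). The difference was -0.08 (SE 0.20, interval -0.58 to 0.41, or a ratio of 0.670 to 1.33, limma adjusted p 0.988), and without orchidectomized 3 it was 0.083. Over 6 arrays it was -0.74 (SE 0.60, interval -2.23 to 0.74, limma adjusted p 0.774).

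Tmprss2, the epithelial serine protease, was well above background on 1 of 6 arrays, the one labelled sham 2, and was not tested in either comparison. Its values were -10.01, -9.74 and -9.78 in orchidectomized rats, against -9.41 on sham 1, -3.25 on the array labelled sham 2 and -10.07 on sham 3. The 5 dim values carry only a bound. The array labelled sham 2 exceeded the mean of the other 5 at least 23.4-fold, each of the 5 taken at the lowest signal that counted as well above background. The probe was spotted 10 times, and the SD over its spots was 0.046 on the array labelled sham 2 and 0.12 to 0.54 on the others.

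**Figure D2:**
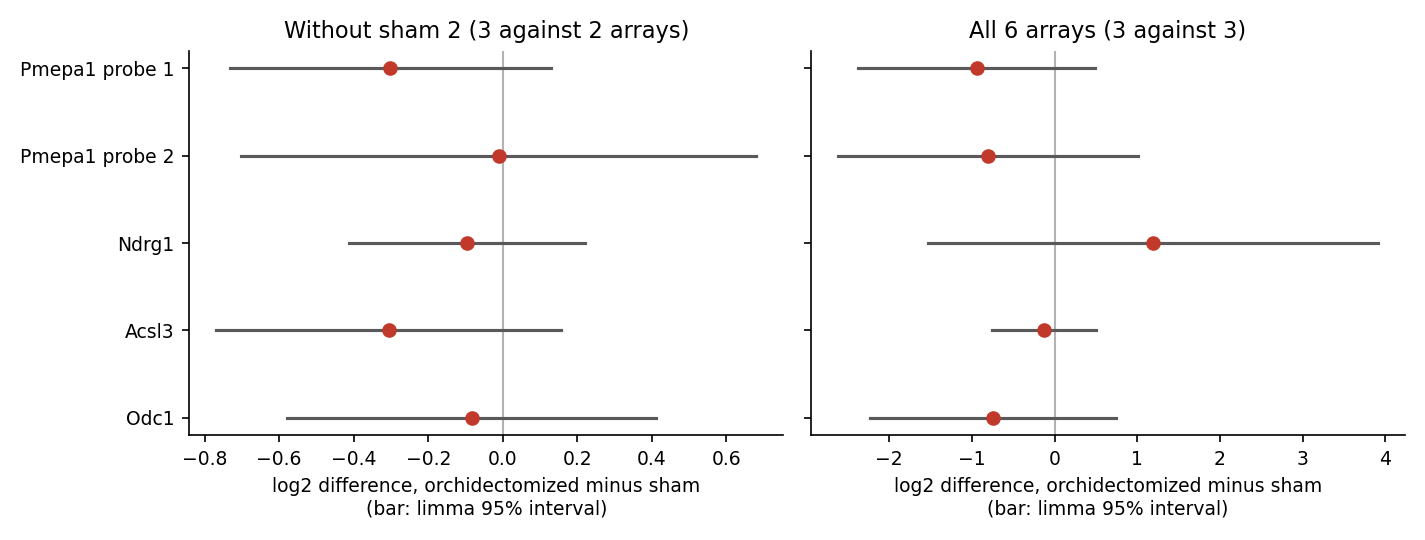
Difference, orchidectomized minus sham, of each tested probe in log2 units with its 95% confidence interval from limma, in the left panel without the array labelled sham 2 and in the right panel over 6 arrays, on a wider axis. All intervals cross 0. Over 6 arrays the intervals are wider for every probe shown, and Ndrg1 changes side.

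The arrays lay on 4 slides scanned on 2 days, and both could be set against the groups only in part. Slide 2 held orchidectomized 3 and sham 1, and there the difference was -0.58 for Pmepa1 probe 1, 0.51 for probe 2 and -0.17 for Ndrg1. It was -0.39 for Acsl3 and -0.45 for Odc1 on that slide. On scan day 1, which covered all 3 orchidectomized arrays but sham 1 alone of its group, the differences were -0.30 and -0.01 for the Pmepa1 probes. They were -0.15 for Ndrg1, -0.15 for Acsl3 and -0.11 for Odc1 on that day. Day 2 held sham arrays only. The signs within slide 2 and within day 1 were those of the comparison without the array labelled sham 2. The exception was Pmepa1 probe 2 on slide 2. These arrays are also part of that comparison, and slide 2 sets 1 array against 1, so shared signs are not a separate check.

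Enzymes of androgen metabolism were also measured, and their genes were not called in either comparison. The steroid reductase gene Srd5a3 differed, without the array labelled sham 2, by -0.19, and the dehydrogenase genes Hsd17b10 and Hsd17b3 by 0.12 and -0.21. These were named because they had the smallest unadjusted p of the enzyme genes tested, which included other steroid reductase genes. Over 6 arrays Srd5a3 differed by -0.22, Hsd17b10 by -0.44 and Hsd17b3 by 0.69. Hsd17b3 was not well above background on the array labelled sham 2.

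Other genes known to respond to androgens were taken as a list of 56, of which 49 were tested, and 0 were called in either comparison. Without the array labelled sham 2, 26 lay above 0 and 23 below, with a median of 0.02 (1 of them, Mak, was tested only through the sham group), and 2 had an unadjusted p under 0.05. Over 6 arrays 22 lay above 0 and 27 below, with a median of -0.02. Scd, a fatty acid desaturase, had -1.0 to -0.51 in orchidectomized rats, against -0.25 on sham 1 and -0.14 on sham 3. Its difference was -0.50 (SE 0.19, limma adjusted p 0.988). Mertk, a receptor kinase for engulfing dying cells, differed by 0.37 (SE 0.15, limma adjusted p 0.988), and the transcription factor gene Zbtb16 by -0.36 (limma adjusted p 0.988). These 3 genes were named because they had the smallest unadjusted p of the list. Their groups did not overlap, which this choice favours, and neither did those of 16.3% of all tested probes (10% with orchidectomized lower, 6.24% with orchidectomized higher). Fkbp5, a co-chaperone of steroid receptors, had 1.62 ± 0.34 in orchidectomized rats (SD, n = 3) and 1.86 ± 0.17 in sham rats (SD, n = 2). Its difference was -0.23 (SE 0.23, limma adjusted p 0.988). Over 6 arrays Scd differed by 0.19, Mertk by 0.47, Zbtb16 by -0.02 and Fkbp5 by 0.53.

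The genes around each member in its pathway were counted in the same way, and 0 of any list were called in either comparison. Of 17 genes of TGF-beta signalling, 12 were tested. Without the array labelled sham 2, 2 lay above 0 and 10 below, with a median of -0.16. In that comparison 55.1% of all tested probes lay below 0, with a median of -0.02. The ubiquitin ligase gene Smurf2 differed by -0.19, the receptor gene Tgfbr2 by -0.28 and the inhibitory Smad7 by -0.31 (limma adjusted p 0.988 each). These had the smallest unadjusted p of the list, and the groups overlapped for Tgfbr2 and Smad7. Without orchidectomized 3 as well, the median of this list was -0.05, and over 6 arrays it was -0.27. Of the 3 relatives of Ndrg1, Ndrg2 and Ndrg4 were saturated on all 5 arrays of this comparison, so no difference is given for them, and Ndrg3 differed by -0.01. Ndrg1 is also known as a gene induced by low oxygen, and of 14 such genes 12 were tested, 7 above 0 and 5 below, with a median of 0.07. Among the 10 of them that were saturated on none of the 5 arrays, 5 lay above 0 and 5 below, with a median of -0.02. Among them Vegfa, the vascular growth factor, differed by 0.30, the oxygen sensor gene Egln3 by -0.29 and the hexokinase gene Hk2 by 0.31. These had the smallest unadjusted p of the 12 tested. Their groups did not overlap, which this choice favours, and neither did those of 16.3% of all tested probes. Over 6 arrays Vegfa differed by 0.07, Egln3 by 0.60 and Hk2 by 0.25.

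Of 10 acyl-CoA synthetase genes 8 were well above background on all 5 arrays other than the one labelled sham 2, and without that array 2 lay above 0 and 6 below, with a median of -0.06. Over 6 arrays 8 were tested, 5 above 0 and 3 below, with a median of 0.19, which was -0.12 without the filter on brightness. The fatty acid transport gene Slc27a6 was well above background on 1 of 3 orchidectomized arrays, against both of these sham arrays, so it was tested only through the sham group and was not called (limma adjusted p 0.988). Without the array labelled sham 2, Acsl6, the neuronal relative of Acsl3, differed by -0.13, Slc27a2 by -0.58 and Acsbg1 by 0.22. Of 18 polyamine genes 17 were tested, 7 above 0 and 10 below, with a median of -0.005. Over 6 arrays 9 lay above 0 and 8 below with a median of 0.20. That 6-array median was -0.04 with quantile normalization and -0.004 without orchidectomized 3. Arg2, an arginase that makes the ornithine used by Odc1, had -3.31 to -3.21 in orchidectomized rats, against -3.01 on sham 1 and -2.44 on sham 3. Its difference was -0.53 (SE 0.20, limma adjusted p 0.988). Arg2 had the smallest unadjusted p of this list, and 10% of all tested probes lay apart with orchidectomized lower. Over 6 arrays its groups overlapped, with a difference of -0.26. Without the array labelled sham 2, Azin1, which keeps Odc1 from its antizymes, differed by 0.03, and the antizyme gene Oaz3 by -0.40. Over 6 arrays Azin1 differed by -0.40 and Oaz3 by 0.38. Oaz2, another antizyme gene, was saturated on 1 of the 2 sham arrays, so its difference is not given. Among the 15 polyamine genes saturated on none of the 5 arrays, 5 lay above 0 and 10 below. Of 13 membrane serine proteases related to Tmprss2 8 were tested, 4 above 0 and 4 below in both comparisons. Without the array labelled sham 2, Hpn differed by -0.57, Tmprss15 by 0.30 and Tmprss6 by 0.48.

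**Figure D3:**
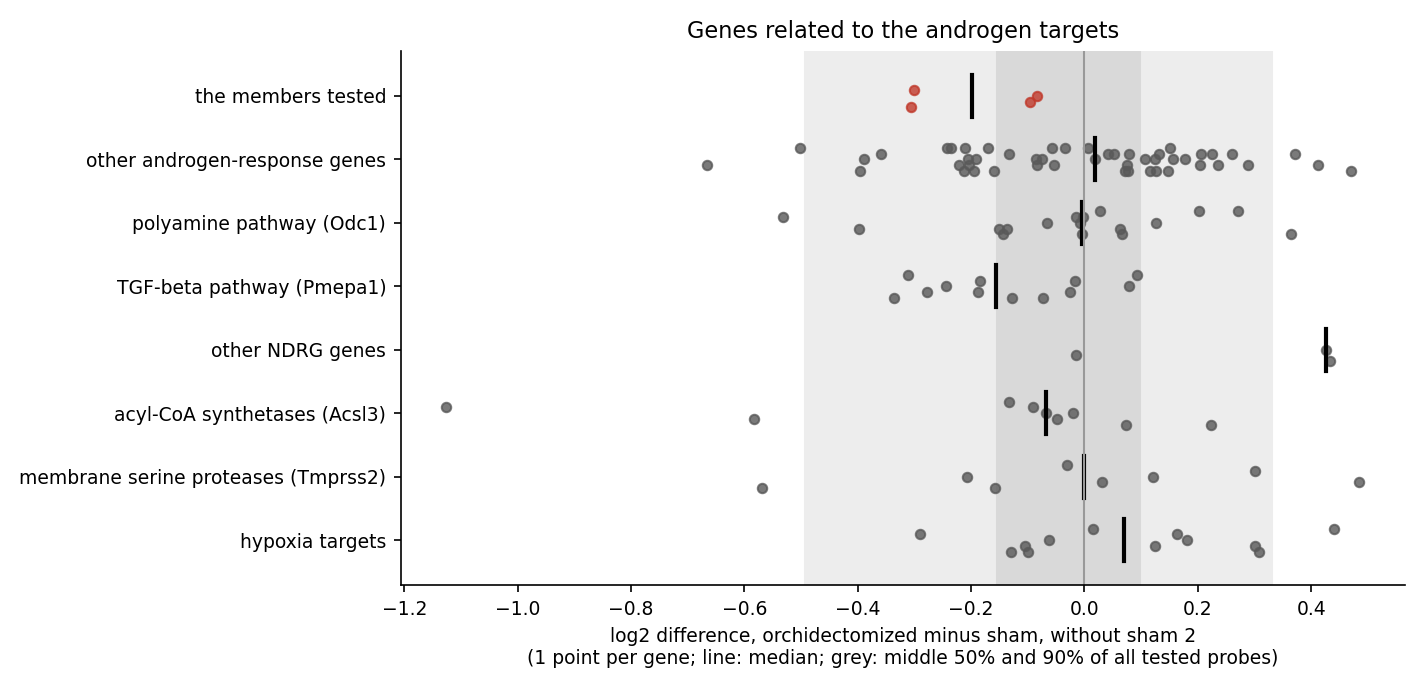
Differences, orchidectomized minus sham, of the tested genes of each list in log2 units without the array labelled sham 2, 1 point per gene, with the list's median as a line. The pale grey band runs from -0.49 to 0.33, the 5th and 95th percentiles of all tested probes, and the dark band marks their quartiles. The 4 tested members lie between -0.31 and -0.08, and each other list plotted has points on both sides of 0. Genes with saturated arrays, such as Ndrg2, Ndrg4 and Pgk1, are plotted at their saturated values, and the lowest point, Slc27a6, was dim in orchidectomized rats.

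The array labelled sham 2 held the highest or lowest value of 4 of the 5 genes, which is 80%, and of 79.9% of the 13780 named genes detected on any array. Against the median of the other 5 arrays it was 4.26-fold higher by Pmepa1 probe 1, 5.27-fold higher by probe 2 and 3.92-fold higher for Odc1. The shift of Ndrg1 was -3.79 log2 units and that of Acsl3 was -0.37. These shifts stand among large ones. Of the 24162 probes detected on the other 5 arrays, 79.1% had a smaller shift in size than Pmepa1 probe 1, 82.1% than probe 2, 91.3% than Ndrg1, 77.6% than Odc1 and 27.6% than Acsl3.

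Markers of several cell types were displaced on the same array. The choroid plexus list had a mean of 4.71 there, against -2.62, -2.96 and -3.65 on the orchidectomized arrays and -3.24 and -4.15 on sham 1 and sham 3. The oligodendrocyte list, the cells that make central myelin, had a mean of -2.30 there, against 1.57, 1.65 and 1.48 on the orchidectomized arrays and 1.97 and 1.66 on sham 1 and sham 3. All 10 oligodendrocyte and all 8 astrocyte markers lay below the lowest of the other 5 arrays, as Ndrg1 did. So did all 7 microglia markers and 4 of 6 endothelial markers, while 2 of 4 ependymal markers lay above the highest of the other 5. In all, 83.3% of endothelial and 50% of ependymal markers lay outside that range. Of all detected named genes 79.9% did, 40.8% above and 39.0% below. All 12 choroid plexus markers were well above background on all 6 arrays. Without the array labelled sham 2, 11 of them lay above 0 and 1 below, with a median difference of 0.46, while all 10 glutamatergic markers lay below 0 with a median of -0.16, and 8 of 10 oligodendrocyte markers lay below 0 with a median of -0.22. Of these markers, Mbp was saturated on all 5 arrays and Ttr on 1, and without Ttr the choroid plexus median was 0.30. The part of these markers in the members' values was not tested.

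**Figure D4:**
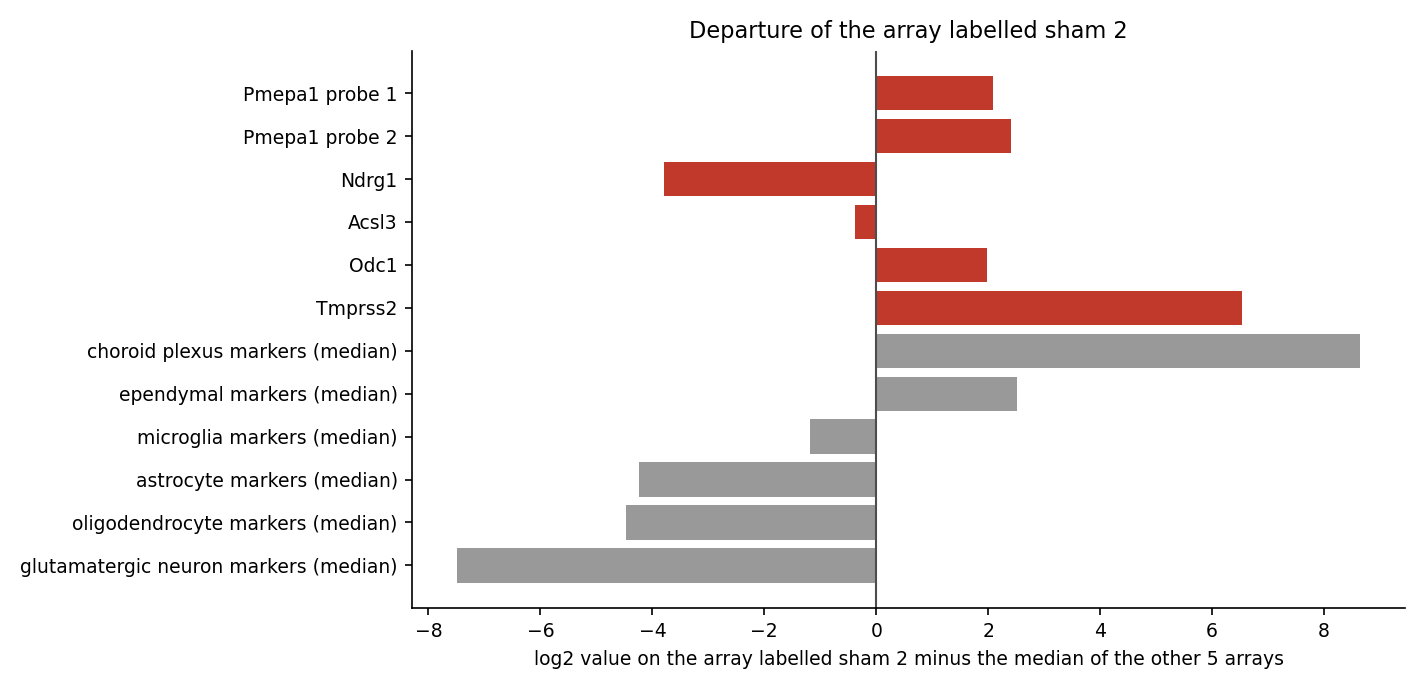
The array labelled sham 2 minus the median of the other 5, in log2 units, as bars for the 6 probes (red) and for the median of each marker list (grey). The Tmprss2 bar is the measured value, dim on the other 5 arrays. Pmepa1, Odc1 and Tmprss2 lie above 0, as do the choroid plexus and ependymal medians. Ndrg1 and Acsl3 lie below 0, as do the microglia, astrocyte, oligodendrocyte and neuron medians. Of all detected named genes, 40.8% lay above the range of the other 5 arrays and 39.0% below it.

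The genes whose profile lay closest to each member's were sought among 12632 named genes, by the root-mean-square distance between log2 profiles centred on their own mean. Over 6 arrays the closest were Mdm2 (0.04) and Pabir1 (0.06) for Pmepa1, and Trmt9b (0.06) and Slc4a4 (0.06) for Ndrg1. They were Irs2 (0.05) and Cutc (0.06) for Acsl3, and Dysf (0.07) and Acadvl (0.08) for Odc1. In these profiles the array labelled sham 2 stood farthest from the rest for Pmepa1, Ndrg1 and Odc1, and Mdm2 had 1.98 there against -0.42 to 0.07 on the other 5. Over the 5 other arrays the closest were Rdh10 and Adam9 for Pmepa1 (0.03 each), and Cenpq (0.01) and Elapor2 (0.02) for Ndrg1. They were Npat and Irs2 for Acsl3 (0.02 each), and Mpnd (0.02) and Dbn1 (0.03) for Odc1. Irs2 was named for Acsl3 both ways, and the other 3 genes had different neighbours with and without that array.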

How the data were processed

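Hippocampal RNA of 6 male rats, 200 ng each, was labelled with Cy3, per the labels' protocols. Per the file headers, the scans were quantified by Agilent Feature Extraction 10.5.1.1. Its processed intensity has background already subtracted. The deposited value table is on the log2 scale and differs from the log2 processed signal by 1 constant per array (-0.32 to 0.72). Its columns have medians of 8.02, 7.94 and 7.91 (orchidectomized 1, 2 and 3) and 7.77, 7.62 and 8.05 (sham 1, 2 and 3). The origin of the constants, and so the centring, is unknown, and 1-colour values have no direction.

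Control spots (1377 of 44254) and outlier spots (235 to 672 per array) were left out, spots of a probe were averaged, and each array's 75th percentile was subtracted from log2 values. A probe took a flag when at least 50% of its spots had it. RefSeq accessions, without versions, matched to GRCr8 symbols for 18004 probes and left 12363 unnamed. The array design names an older build, so its coordinates were not used. Probes well above background on every array of at least 1 group were tested with limma 3.58.1 in R 4.3.3, two-sided, Benjamini-Hochberg adjusted over all tested probes. This filter admits a probe through 1 group alone. The fit was tested on simulated data with groups of equal size, no outlying array and changes larger than those of the tested members. Neither comparison had that setting.

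The members and lists were chosen with earlier results of these data known. Named genes were all members, Fkbp5, Azin1, Ndrg2, Acsl6, genes of each list among the 3 with the smallest unadjusted p, and the 2 closest profiles per member; a result that this rule also covers is not reported here. Marker genes named for the array labelled sham 2 were singled out after their values were seen. Normexp used median spot signals in place of the planned mean signals. Same-numbered arrays of the 2 groups correlated in their deviations at 0.0274, -0.0226 and -0.0177. The deviations were taken from group means that include the array labelled sham 2, so they cannot show whether numbers pair the animals. The labels give no pairing. The number of arrays limits the precision.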

Additional observations from a re-analysis of the deposited data

How the results depend on the processing

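No probe of the 5 genes was called in either comparison under any setting that tested it. The smallest limma adjusted p over settings was 0.127 for Pmepa1 probe 1 in the comparison of 6 arrays, and 0.143 with the array labelled sham 2 left out. The value over 6 arrays came with slide as a block. Only slide 2 held both groups, so that difference is orchidectomized 3 against sham 1 alone. Over 6 arrays the count of called probes was 0 and became 1 with quantile normalization and 13 with array weights. Those weights were 0.028 for the array labelled sham 2, 0.458 for orchidectomized 3 and 0.857 to 5.69 for the other arrays. With the array labelled sham 2 left out, orchidectomized 3 had the lowest weight (0.258, against 0.849 to 2.66). The count over 6 arrays was 0 to 0 leaving out 1 array at a time. Without the array labelled sham 2 the count was 0 and became 2 with quantile normalization and 1 with median scaling. It became 18 with the authors' deposited values and 10 with scan day as a block. Leaving out 1 further array gave 0 to 251, with 22 without sham 1 and 251 without sham 3, the lone sham array being assumed to vary like the others. The replicate block called 0 probes in both comparisons. Not every array correlated best with its own number, in deviations that include the array labelled sham 2.

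Over 6 arrays the sign turned for Pmepa1 probe 2 with slide as a block (0.51), for Ndrg1 with slide (-0.17) or scan day (-0.15) as a block and with array weights (-0.12), and for Odc1 with array weights (0.032). Leaving out 1 array at a time gave -0.10 to 1.85 for Ndrg1 and -0.31 to 0.036 for Acsl3. Without the array labelled sham 2 the sign turned for Pmepa1 probe 2 with normexp (0.022), the authors' values (0.042), slide as a block (0.51) and the replicate block (0.055), and for Odc1 with array weights (0.066). Leaving out 1 further array gave -0.27 to 0.18 for Pmepa1 probe 2 and -0.20 to 0.083 for Odc1. Tmprss2, dim in both groups, had 0.37 with normexp. Median scaling moved the median of all probes to -0.10 over 6 arrays. The cause of these changes was not tested.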

Other observations

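Genes known to respond to androgens were displaced on the array labelled sham 2 in both directions, and the examples here were picked after their values were seen. Of 50 detected genes of that list, 23 lay above the highest of the other 5 arrays and 24 below the lowest, together 94%, where 79.9% of all detected named genes lay outside that range (40.8% above, 39.0% below). Whether these shares differ was not tested. The epithelial keratin gene Krt8 had 2.10 there, against -6.18 to -5.03 on the other 5. The BMP receptor gene Bmpr1b was not well above background there and had -1.99 to -1.54 on the other 5. The kinase gene Camkk2 had -5.26 against -0.98 to -0.10.

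Of 17 detected polyamine genes, 6 lay above the highest of the other 5 arrays and 9 below the lowest, together 88.2%. Of 13 TGF-beta genes, 8 lay above and 2 below, together 76.9%. Of all detected named genes 79.9% lay outside that range, and whether these shares differ was not tested. The genes named next for the array labelled sham 2 were picked after their values were seen. The arginase gene Arg1 had -6.59 there against -0.18 to 0.37 on the other 5, and Sat2, an acetyltransferase, had 2.93 against 0.68 to 0.78. Tgfb2, a TGF-beta ligand, had 1.12 against -2.62 to -1.96, and its receptor gene Tgfbr2 had -1.60 against -5.00 to -4.30.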
